A study of Mus musculus with 610 samples.

Results

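Sox13 encodes an HMG box transcription factor, and the cells described here are those of B6 DN1d and B6 DN2 thymocyte progenitors in which its assay was detected. They were chosen by their own measurement: a cell was a member when its Sox13 threshold cycle (Ct) lay below 24, the highest value in the table. The rule took 162 of the 610 cells of the series, 69 of 78 DN2 cells and 93 of 223 DN1d cells. The DN1d members came from 3 runs of the capture instrument, with 36 of 72 cells in run 1, 31 of 70 in run 2 and 26 of 81 in run 3, and the DN2 members from 1 run. Both populations came from the thymus of C57BL/6J mice aged 7 to 10 days after birth, sorted as live cells without surface T cell receptor delta chain or lineage markers. DN1d cells were CD44+ CD25- CD24+ cKit-, and DN2 cells CD44+ CD25+ cKit+. The series also held Tcrd-/- DN1d cells (7 to 10 days after birth) and Rag1-/- cKit- cells (0 to 2 days). These other populations enter only in a description and in an alternative fit. The study measured 48 assays, among them Sox13, by quantitative PCR on complementary DNA of single cells, to describe progenitors of Tgd17 cells, the interleukin 17 producers among gamma delta T cells. The genes behind the gates (Cd44, Il2ra, Kit, Cd24a), and markers of B cells and of mature T cells, are not among the assays analysed here, so the sort could not be checked against them.

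As background, T cell development in the thymus is usually drawn as a path from early progenitors through the DN2 stage, at which cells still hold other fates open and divide, to commitment and rearrangement of the receptor genes. Sox13, together with Sox4, is known as a factor of the Tgd17 lineage, whose cells are made in a wave around birth and which also depends on Maf. Detection of Sox13 alone therefore does not say which programme surrounds it, and the comparison asks what else the Sox13-detected cells of each population expressed.

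Sox13 itself stood at a lower level in the DN2 members. Level is 24 minus Ct, in PCR cycles, so that a higher number is more product and an undetected reaction is 0. The mean Sox13 level over members was 9.44, 8.92 and 10.2 cycles in DN1d runs 1, 2 and 3, and 7.16 in the DN2 run. Every DN1d run lay above DN2, by 2.37 cycles on average (DN1d mean 9.53 ± 0.657, SD, n = 3 runs). This is a description without a test, because the Sox13 values chose the cells. The ranges of single cells overlapped, but most cells lay apart, with 76 of 93 DN1d members above the upper quartile of DN2 (8.23) and 59 of 69 DN2 members below the lower quartile of DN1d (8.57). Few members lay near the limit of detection. The highest Ct of a member was 22.6 in DN1d, where the next was 19.8, and 21.2 in DN2, where the next was 21.1. The 130 DN1d and 9 DN2 cells outside all stood at exactly 24.

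The lower Sox13 level in DN2 did not go with less product or fewer assays overall. Gapdh, a glycolytic enzyme used as a reference, was detected in all 162 members, at a level of 15.0, 14.5 and 14.5 in the DN1d runs and 15.2 in DN2. That difference of 0.52 ± 0.37 cycles (SE) did not pass the test (limma, Benjamini-Hochberg adjusted p = 0.35). A DN1d member had on average 23.8, 23.9 and 24 of the other 47 assays detected in runs 1 to 3, and a DN2 member 27.9. The DN2 mean was 3.98 assays above that of DN1d, whose runs differed little (23.9 ± 0.0835, SD, n = 3), while cells ranged from 13 to 34 assays in DN1d and from 23 to 33 in DN2. Detection of each assay was therefore also compared with a linear adjustment for this number, on the scale of the share. It was compared as well among members with 25 to 29 other assays detected in both populations. The number is counted from the same panel that is tested, so both comparisons may take out part of the differences themselves. It is no separate measure of the amount of product in a cell. With the adjustment 19 of 45 assays passed, 13 higher and 6 lower in DN2, against 27 without it, and among the matched members 31 did.

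**Figure D1:**
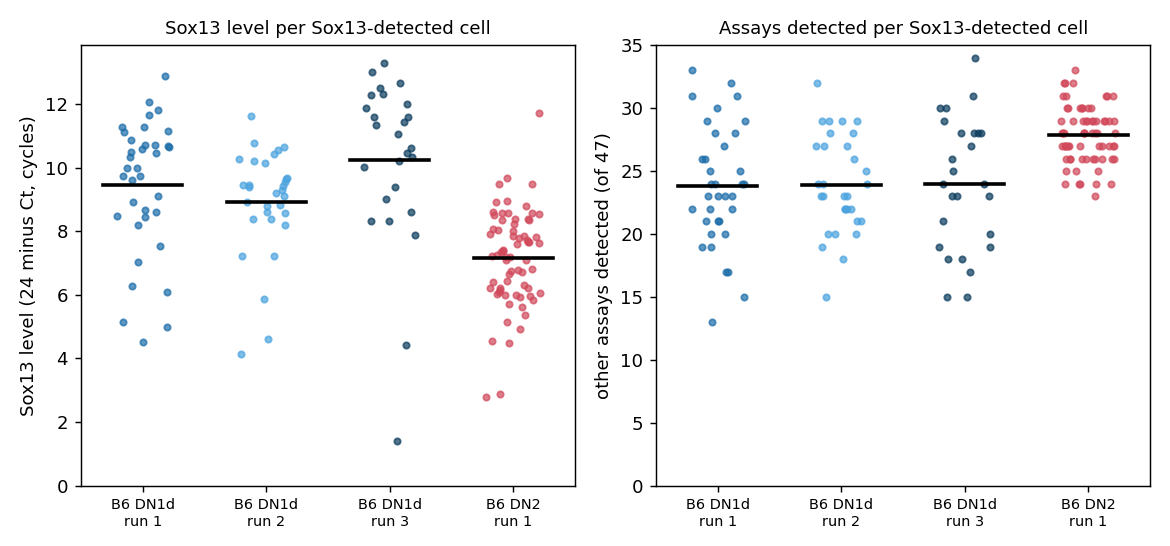
Left, Sox13 level (24 minus Ct, in cycles) of each Sox13-detected cell of the 3 B6 DN1d runs and the B6 DN2 run; right, number of the other 47 assays detected in the same cells. Each point is a cell and the bar is the mean of its run; DN2 cells sit lower on the left (mean 7.16, against 8.92 to 10.2) and higher on the right (mean 27.9, against 23.8 to 24).

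Detection of the other assays separated the Sox13-detected cells of the populations. Of 45 assays detected in at least 1 member, 27 (60%) differed between DN2 and DN1d at an adjusted p below 0.05: 18 (40%) were found in a larger share of DN2 members and 9 (20%) in a smaller one. The test compared the natural log odds of detection (empirical logit) of each run with limma, with Benjamini-Hochberg adjustment over the 45 assays, and 29 passed before adjustment. The DN2 share lay outside the range of the 3 DN1d runs for 34 assays (75.6%), above it for 22 (48.9%) and below it for 12 (26.7%). A run like the other 3 would lie above their range with a probability of 0.25 and below it with 0.25, ties aside. The share of assays below the range was near that value. The single DN2 run was assumed to vary as the DN1d runs did, and its run cannot be told apart from its population. A permutation of 1 run against 3 cannot give a p below 0.25, so all calls rest on limma's model of the spread between runs, which may in part be technical.

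**Figure D2:**
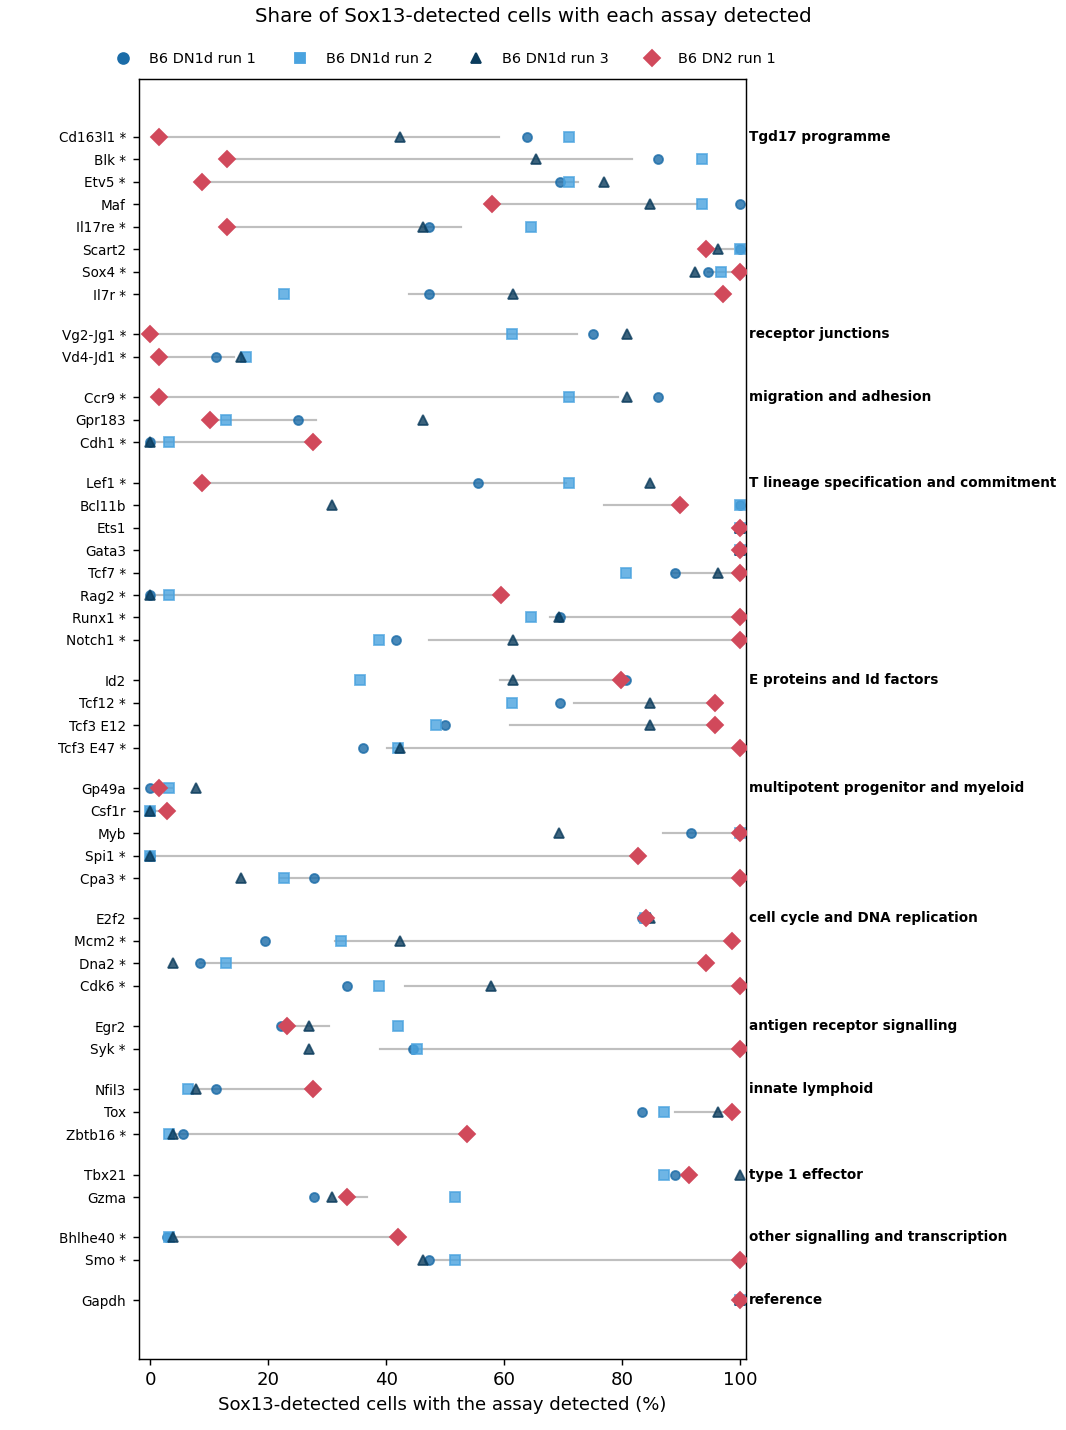
Percentage of the Sox13-detected cells of each run in which an assay was detected, by gene list, with 36, 31 and 26 cells in B6 DN1d runs 1 to 3 and 69 in the B6 DN2 run; the grey line joins DN2 to the mean of the DN1d runs and a star marks an adjusted p below 0.05. DN2 lies far to the left for Blk, Etv5, Cd163l1, Ccr9 and Vg2-Jg1, and far to the right for Spi1, Cpa3, Mcm2, Dna2 and Rag2.

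Genes of the Tgd17 programme were mostly detected in fewer of the Sox13-detected DN2 cells. Of the 9 members of this list other than Sox13, 5 were detected in fewer DN2 cells, 2 in more and 2 did not pass the test. Among all 45 assays, 20% were detected in fewer DN2 cells and 40% in more. The median difference of the list was -2.47 on the logit scale, against 0.93 over all 45 assays. Blk is a kinase of the Src family. It was detected in 31 of 36, 29 of 31 and 17 of 26 DN1d members (86.1%, 93.5% and 65.4%) and in 9 of 69 DN2 members (13%, exact 95% interval 6.14 to 23.3%). Etv5, an ETS family transcription factor, was detected in 69.4%, 71% and 76.9% of DN1d members and in 6 of 69 DN2 members (8.70%, 3.26 to 18.0%). For both genes the DN2 run lay below all 3 DN1d runs, by -3.46 ± 0.84 (SE) for Blk (adjusted p = 0.0245) and by -3.21 ± 0.40 for Etv5 (adjusted p = 0.00388). Cd163l1, a scavenger receptor family gene of gamma delta T cells, was detected in 63.9%, 71% and 42.3% of DN1d members and in 1 of 69 DN2 members (1.45%; adjusted p = 0.00596). Il17re, which encodes a chain of an interleukin 17 receptor, was detected in 47.2%, 64.5% and 46.2% against 13% (adjusted p = 0.027). Again no DN1d run reached down to the DN2 share.

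Other genes of the list were shared, or went the other way. Maf, the transcription factor on which Tgd17 cells depend, was detected in 100%, 93.5% and 84.6% of DN1d members and in 40 of 69 DN2 members (58%, 45.5 to 69.8%); DN2 lay below every run, but the difference of -2.47 ± 1.16 did not pass (adjusted p = 0.137). Scart2, a second scavenger receptor gene, was detected in 100%, 100% and 96.2% against 94.2% (adjusted p = 0.258). Il7r, the alpha chain of the interleukin 7 receptor, was detected in 47.2%, 22.6% and 61.5% of DN1d members and in 67 of 69 DN2 members (97.1%; logit difference 3.58 ± 0.76, adjusted p = 0.0177). Sox4 was near the top in both, at 94.4%, 96.8% and 92.3% against 100%, a difference that passed the test (2.29 ± 0.47, adjusted p = 0.0171) and rests on 5 DN1d cells without the gene. The calls for Blk, Il17re and Sox4 were lost without DN1d run 1 (adjusted p = 0.0587, 0.0802 and 0.0627), and that for Il17re also without run 2 (0.0546). With adjustment for the number of assays, Sox4 (adjusted p = 0.882), Il7r (0.159), Cd163l1 (0.0546) and Il17re (0.0527) did not pass. Among members with Sox13 Ct from 14 to 20, the Sox13 levels of the populations were closer (8.10 in DN1d, 7.22 in DN2). This set held 19, 23 and 7 DN1d cells and 66 DN2 cells. Its numbers of other assays detected lay further apart than over all members (21.5 in DN1d, 27.9 in DN2). There the Blk, Cd163l1, Il17re, Il7r and Sox4 calls were lost (adjusted p = 0.174, 0.0516, 0.682, 0.0689 and 0.0522) with every direction kept.

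The number of Tgd17 genes in a single cell showed the same gap. A DN1d member had a median of 7 of the 9 assays detected in each of the 3 runs, and a DN2 member a median of 4. At least 6 of the 9 were detected in 27 of 36, 31 of 31 and 18 of 26 DN1d members and in 2 of 69 DN2 members. Blk and Etv5 were detected together in 25, 20 and 16 DN1d members of runs 1 to 3 and in 2 DN2 members. Maf and Il7r were detected together in 40 DN2 members, that is in every DN2 member with Maf. Il7r was detected in 67 of 69 DN2 members, so that overlap was largely set by its share. These counts describe cells of the same runs and were not tested.

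**Figure D3:**
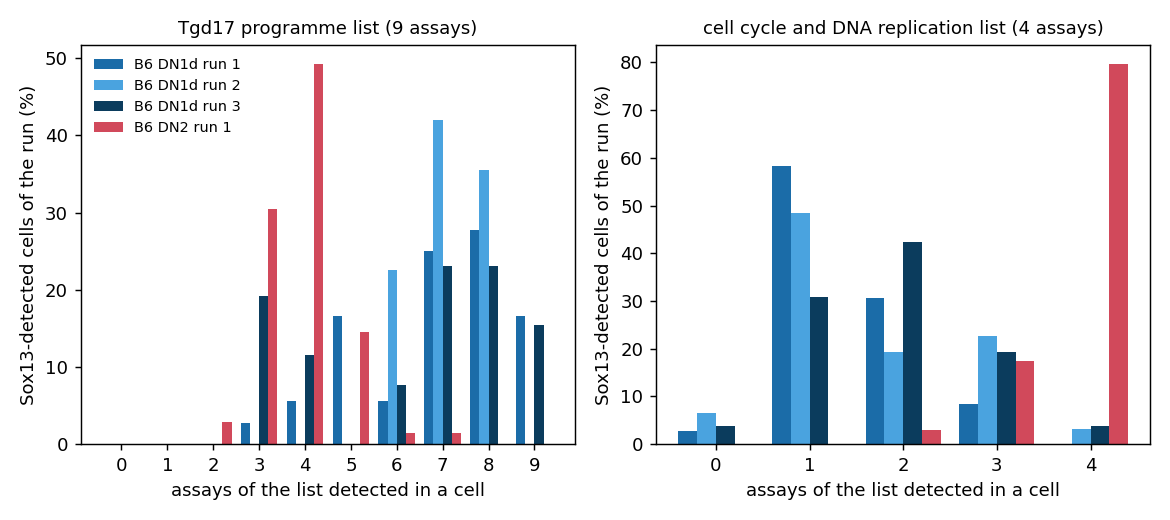
Percentage of the Sox13-detected cells of each run by the number of assays of a list detected in the cell, for the Tgd17 programme (9 assays, left) and for cell cycle and DNA replication (4 assays, right). DN2 cells pile up at 3 to 5 Tgd17 assays and at all 4 cell cycle assays, DN1d cells at 6 or more and at 1 or 2.

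The junction transcripts detected were nearly confined, among these members, to DN1d. The panel held 3 junction assays, and other receptor rearrangements were not measured. The Vg2-Jg1 junction assay, named for a joined gamma chain variable and joining segment, was detected in 27 of 36, 19 of 31 and 21 of 26 DN1d members (75%, 61.3% and 80.8%) and in 0 of 69 DN2 members, which allows a share of up to 4.35%. The fitted difference was -5.89 ± 0.53 (adjusted p = 0.0024), a value that depends on the 0.5 added to a count of 0. Vd4-Jd1, a delta chain junction, was detected in 4, 5 and 4 DN1d members (11.1%, 16.1% and 15.4%) and in 1 DN2 member (1.45%; adjusted p = 0.0158, 0.0581 without DN1d run 1). Vd5-Jd1 was detected in no member of either population. Both junction assays that were detected thus passed as lower in DN2, where 20% of all assays did.

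Ccr9 went with them. This chemokine receptor for CCL25, which thymic epithelium makes, was detected in 86.1%, 71% and 80.8% of DN1d members and in 1 of 69 DN2 members (1.45%; -5.14 ± 0.51, adjusted p = 0.00264). Cdh1, the adhesion molecule E-cadherin, showed the opposite: 0 of 36, 1 of 31 and 0 of 26 DN1d members against 19 of 69 DN2 members (27.5%; adjusted p = 0.0226, 0.0587 without DN1d run 1). Gpr183, an oxysterol receptor that guides migration, was detected in 25.0%, 12.9% and 46.2% against 10.1% and did not pass (adjusted p = 0.258). Of the 3 assays for migration and adhesion, 1 was therefore higher in DN2 by detection and 1 lower. Of all assays, 40% were higher and 20% lower.

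DN1d members with and without a junction were also set side by side, without a test. Of the 93, 72 had a junction assay detected (28, 23 and 21 in runs 1 to 3) and 21 did not (8, 8 and 5). Blk was detected in 64 of the 72 (88.9%) and 13 of the 21 (61.9%), Etv5 in 79.2% and 47.6%, and Tcf7 in 95.8% and 61.9%. Also lower without a junction were Cd163l1 (65.3% and 42.9%), Myb (94.4% and 66.7%), Sox4 (98.6% and 81%), Notch1 (51.4% and 28.6%) and Cpa3 (26.4% and 9.52%). Whether these drops go beyond the lower number of assays detected was not tested. Other genes were close in both, such as Maf (94.4% and 90.5%), Scart2 (98.6% and 100%), Il7r (43.1% and 42.9%), Mcm2 (29.2% and 33.3%) and Cdk6 (40.3% and 47.6%). The shares differed between runs: Blk was detected in 5 of 8 members without a junction in run 1, in 8 of 8 in run 2 and in 0 of 5 in run 3. When members with a junction were left out of both populations, DN2 (68 cells) differed from DN1d (21 cells) in 15 of 43 assays, 14 of them higher in DN2 and 1, Ccr9, lower. The calls for Blk, Cd163l1, Etv5 and Il17re were lost there (adjusted p = 0.477, 0.119, 0.061 and 0.513), with no change of direction, on 5 to 8 DN1d cells per run.

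Of 8 assays of T lineage genes, 4 were detected in more DN2 members, 1 in fewer, and 3 did not pass, where 40% and 20% of all assays did. Notch1, the receptor whose signal starts the T cell programme, was detected in 41.7%, 38.7% and 61.5% of DN1d members and in all 69 DN2 members (5.04 ± 0.54, adjusted p = 0.00278). Runx1, a transcription factor of early T cells, was detected in 69.4%, 64.5% and 69.2% against 100% (4.22 ± 0.38, adjusted p = 0.0024). Rag2, a subunit of the recombinase that joins receptor segments, was detected in 0, 1 and 0 DN1d members and in 41 of 69 DN2 members (59.4%, 46.9 to 71.1%; adjusted p = 0.00738). Rag2 transcript thus lay in the population in which 1 of 69 members had a detected junction, and 1 of 93 DN1d members had it.

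The HMG box factors Tcf7 and Lef1, relatives that act with beta-catenin, took opposite directions. Tcf7 was detected in 88.9%, 80.6% and 96.2% of DN1d members and in all DN2 members (2.88 ± 0.70, adjusted p = 0.0245). That call was lost without DN1d run 1 (0.0627), on the arcsine scale (0.164) and with adjustment for the number of assays (0.716). Lef1 was detected in 55.6%, 71% and 84.6% of DN1d members and in 6 of 69 DN2 members (8.70%; -3.18 ± 0.67, adjusted p = 0.0177). Since every DN2 member had Tcf7, the 6 with Lef1 necessarily had both, and the other 63 had Tcf7 alone. Gata3 and Ets1, factors of T cell commitment and identity, were detected in every member of both populations. Bcl11b, the commitment factor, was detected in 100%, 100% and 30.8% of DN1d members and in 89.9% of DN2 members (adjusted p = 0.882); DN1d run 3 stood apart from the others, and DN2 lay within their range.

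The E proteins were taken next. E47 and E12 are splice forms of Tcf3, and with HEB (Tcf12) they drive rearrangement and T cell genes, while Id2 blocks them. The assay for E47 was detected in 36.1%, 41.9% and 42.3% of DN1d members and in all 69 DN2 members (5.32 ± 0.39, adjusted p = 0.00178). Tcf12 was detected in 69.4%, 61.3% and 84.6% against 95.7% (adjusted p = 0.0478), a call lost without DN1d run 1 (0.134) or run 2 (0.0546), among members matched for the number of assays (0.556) and in 4 further alternatives. The E12 assay (50%, 48.4% and 84.6% against 95.7%, adjusted p = 0.0678) and Id2 (80.6%, 35.5% and 61.5% against 79.7%, adjusted p = 0.395) did not pass. So 2 of these 4 assays passed, both higher in DN2, near the 40% of all assays.

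Among 5 progenitor and myeloid genes tested, Spi1 and Cpa3 passed, both detected in more DN2 members, which is the same 40% as among all assays. Spi1, which encodes PU.1, a factor of myeloid and multipotent progenitors, was detected in 0 of 93 DN1d members, which allows up to 3.23%, and in 57 of 69 DN2 members (82.6%, 71.6 to 90.7%; adjusted p = 0.00178). Cpa3, a protease of mast cells that early progenitors also express, was detected in 27.8%, 22.6% and 15.4% of DN1d members and in all 69 DN2 members (6.17 ± 0.46, adjusted p = 0.00178). Both genes were found in most or all DN2 members and in a minority of DN1d members. Myb, a progenitor transcription factor, was detected in 91.7%, 100% and 69.2% against 100% (adjusted p = 0.178). The myeloid genes were rare in both: Csf1r, the receptor for the macrophage growth factor, was detected in no DN1d and 2 DN2 members, Gp49a in 3 and 1, and Csf2rb2 in none. Cpa3 and Spi1 in DN2 therefore did not go with the 3 other myeloid assays. Of the 57 DN2 members with Spi1, 31 also had Maf and 26 did not. Of those without Spi1, 9 had Maf and 3 did not, so Maf was not more frequent with Spi1.

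Of 3 innate lymphoid genes, 1 passed, as higher in DN2, where 40% of all assays did: Zbtb16. It encodes PLZF, a factor of innate-like lymphocytes, and was detected in 2, 1 and 1 DN1d members (5.56%, 3.23% and 3.85%) and in 37 of 69 DN2 members (53.6%, 41.2 to 65.7%; 2.97 ± 0.40, adjusted p = 0.00503). Nfil3, needed for innate lymphoid cells, was detected in 11.1%, 6.45% and 7.69% against 27.5% (adjusted p = 0.0571). Tox, a nuclear factor of thymocyte and innate lymphoid development, was detected in 83.3%, 87.1% and 96.2% against 98.6% (adjusted p = 0.0811). DN2 lay above every DN1d run for all 3 genes. Of the 37 DN2 members with Zbtb16, 20 also had Rag2 and 17 did not. Of those without Zbtb16, 21 had Rag2 and 11 did not, so Rag2 was not more frequent with Zbtb16.

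Of the 4 cell cycle genes, 3 were detected in nearly every DN2 member. The same 3 passed as higher in DN2, where 40% of all assays did. Mcm2, a subunit of the helicase that opens DNA at replication, was detected in 19.4%, 32.3% and 42.3% of DN1d members and in 68 of 69 DN2 members (98.6%; 4.62 ± 0.57, adjusted p = 0.00388). Dna2, a nuclease and helicase of replication, was detected in 8.33%, 12.9% and 3.85% against 94.2% (4.98 ± 0.55, adjusted p = 0.00296). Cdk6, a kinase of the G1 phase, was detected in 33.3%, 38.7% and 57.7% against 100% (adjusted p = 0.00278). E2f2, a transcription factor of the cell cycle, did not share this: it was detected in 83.3%, 83.9% and 84.6% of DN1d members and 84.1% of DN2 members (0.05 ± 0.37, adjusted p = 0.897). All 4 were detected together in 0, 1 and 1 DN1d members and in 55 of 69 DN2 members, and Mcm2 with Dna2 in 65 DN2 members.

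Signalling genes completed the DN2 pattern. Syk, a kinase downstream of antigen receptors, was detected in 44.4%, 45.2% and 26.9% of DN1d members and in all DN2 members (5.39 ± 0.51, adjusted p = 0.00242), while Egr2, a gene induced by receptor signals, was detected in 22.2%, 41.9% and 26.9% against 23.2% (adjusted p = 0.592). Smo, the signal transducer of the hedgehog pathway, was detected in 47.2%, 51.6% and 46.2% against 100% (5.00 ± 0.38, adjusted p = 0.00178). Bhlhe40, a basic helix-loop-helix repressor, was detected in 1 member of each DN1d run and in 29 of 69 DN2 members (42.0%; adjusted p = 0.00596). The type 1 effector genes did not pass: Tbx21, which encodes T-bet, was detected in 88.9%, 87.1% and 100% against 91.3% (adjusted p = 0.837), and Gzma, a granzyme, in 27.8%, 51.6% and 30.8% against 33.3% (adjusted p = 0.86).

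Of the 26 named assays past the threshold, 10 passed under every alternative tried: Ccr9 and Vg2-Jg1, detected in fewer DN2 cells, and Cpa3, Dna2, Mcm2, Runx1, Smo, Spi1, the E47 assay and Zbtb16, detected in more (Vg2-Jg1 was not tested where members with a junction were left out). The other 16 missed the threshold under at least 1, and none changed direction. With adjustment for the number of assays, 11 of the 26 missed it. For those not yet given with a lost call, the highest adjusted p under any alternative was 0.113 for Notch1, 0.0651 for Cdk6 and 0.0603 for Syk (detection adjusted for the number of assays in a cell), and 0.0564 for Rag2 and 0.26 for Bhlhe40 (members with no junction). For Lef1 it was 0.0636, on the arcsine scale. Among members with 25 to 29 other assays detected (9, 11 and 8 DN1d cells, 47 DN2 cells), 31 assays passed, 21 of them higher and 10 lower in DN2. Sox13 levels in this matched set were 10.5 in DN1d and 7.27 in DN2, further apart than over all members.

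Mean level over all members, with undetected cells at 0, gave 22 of 45 assays past the threshold (48.9%), 15 higher in DN2 (33.3%) and 7 lower (15.6%). Of these, 20 had also passed by detection, and Nfil3 and Scart2 passed by level alone. Scart2 had a mean level of 10.9, 10.9 and 11.8 cycles in the DN1d runs and 6.43 in DN2, below every run (-4.78 ± 0.57 cycles, adjusted p = 0.0177). Among the genes with larger differences, Cpa3 stood 9.47 ± 0.33 cycles higher in DN2 (2.12, 1.71 and 1.59 against 11.3, adjusted p = 0.00306) and Blk 7.81 lower (9.54, 9.05 and 7.74 against 0.966, SE 0.93, adjusted p = 0.0177). The Tgd17 list had 5 of 9 assays lower in DN2 and none higher, with a median difference of -5.17 cycles against 0.95 over all assays. These calls rested on few runs: without DN1d run 1, limma called 0 of the 45, with 16 below an unadjusted p of 0.05 (Scart2, adjusted p = 0.087; Cpa3, 0.0702; Blk, 0.0757), and without run 2, 11 did.

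Level was then taken only over cells in which an assay was detected, for the 29 assays with at least 5 such members in each run. Here 3 (10.3%) passed: Cdk6 was higher in DN2 (3.45%), and Maf and Scart2 were lower (6.9%). Cdk6 had a level of 9.41, 8.63 and 9.88 cycles in the DN1d members that had it and 13.8 in DN2 (4.54 ± 1.24, adjusted p = 0.00804). Scart2 stood at 10.9, 10.9 and 12.3 against 6.83 (-4.54 ± 1.24, adjusted p = 0.00804), and Maf at 8.83, 7.04 and 10.9 against 5.27 (-3.66 ± 1.24, adjusted p = 0.0443). Both genes were thus detected in a large share of the DN2 members but at a lower level, and no run overlapped with DN2. Blk, in the 9 DN2 members that had it, stood at 7.40 against 11.1, 9.68 and 11.8 (adjusted p = 0.0521). Mcm2 and Runx1 (12.3 each in DN2; DN1d 9.69, 8.78 and 9.87 for Mcm2, and 8.73, 9.34 and 9.52 for Runx1) and Tcf7 (12.1 against 8.73, 8.2 and 9.51) did not pass. The 3 calls were lost without any 1 of the DN1d runs (adjusted p from 0.12 to 0.399; 3 to 9 assays below an unadjusted p of 0.05 in limma) and when levels were shifted by each cell's Gapdh (0.18 to 0.262).

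**Figure D4:**
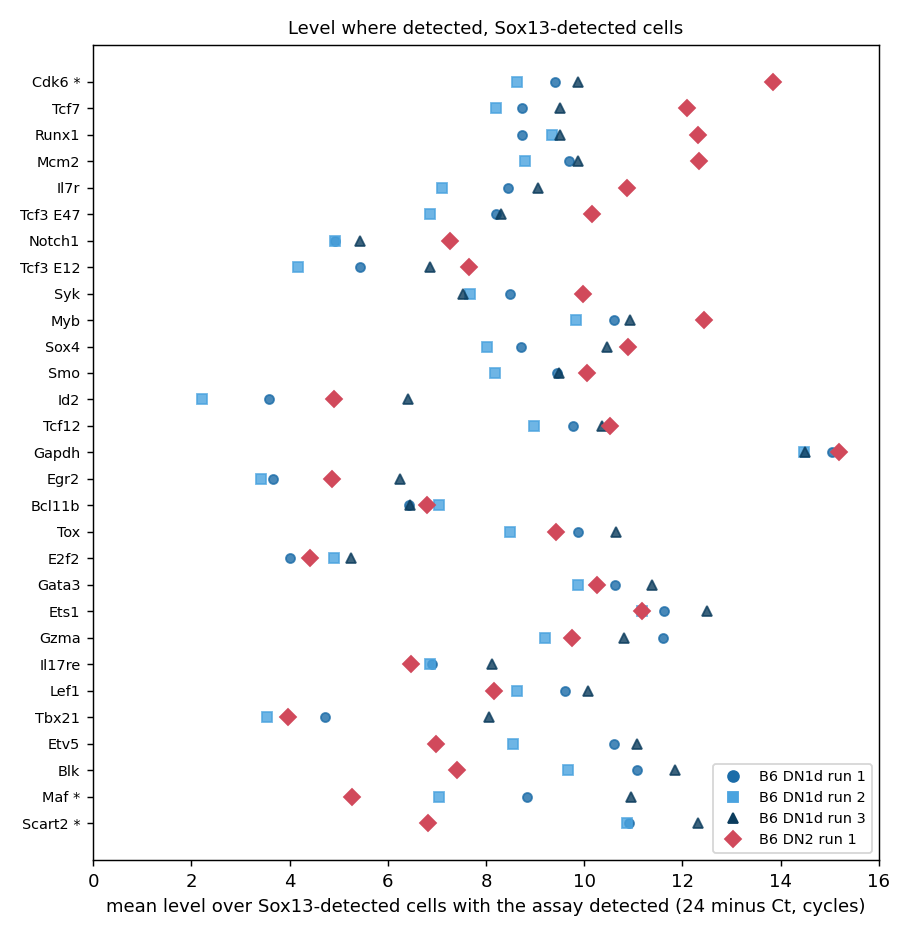
Mean level (24 minus Ct, in cycles) over the Sox13-detected cells in which each assay was detected, for the 29 assays with at least 5 such cells in every run, ordered by the difference between B6 DN2 and the mean of the 3 B6 DN1d runs; a star marks an adjusted p below 0.05. Cdk6 at the top (13.8 in DN2) and Maf and Scart2 at the bottom (5.27 and 6.83) carry the stars.

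Within each run, the level of other genes was set against that of Sox13 over member cells, as a description of cells that Sox13 itself had chosen. Spearman's rho between the Sox13 level and the Blk level over member cells was 0.699, 0.613 and 0.783 in the DN1d runs (36, 31 and 26 cells) and 0.0565 in DN2 (69 cells). For Etv5 it was 0.745, 0.485 and 0.829 against 0.136, and for Maf 0.442, 0.555 and 0.581 against -0.0142. Myb was related to Sox13 in each run of both populations (0.629, 0.518 and 0.531; 0.499 in DN2). Cells of a run share its reagents and scale, and Gapdh itself correlated with Sox13 at 0.323, 0.639 and -0.014 in DN1d and 0.46 in DN2. With 60 of 69 DN2 members at 0 for Blk and 63 for Etv5, their rho could hardly be high there, so these values do not compare the populations.

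Whether these differences were particular to cells with Sox13 was asked by subtracting the difference between DN2 and DN1d among cells without it. That difference of differences passed for 11 of 45 assays (24.4%), 3 positive (6.67%) and 8 negative (17.8%), and for 5, 8 and 1 without DN1d run 1, 2 or 3. In DN1d, Blk was detected in 0%, 0% and 3.64% of cells without Sox13, and Cd163l1 in 2.78%, 0% and 0%, against 65.4 to 93.5% and 42.3 to 71% with it. In DN2, Blk was detected in 1 of 9 cells without Sox13 (11.1%) and 13% with it, and Cd163l1 in 0 of 9 and 1.45%. So in DN1d these genes were found almost wholly with Sox13, and in DN2 rarely in either kind of cell (difference of differences -5.63 ± 1.09 for Blk, adjusted p = 3.06e-05, and -5.33 ± 1.09 for Cd163l1, adjusted p = 6.32e-05). For Cd163l1 the call was lost without DN1d run 3 (adjusted p = 0.0664).

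Of the 18 assays detected in more DN2 members, Il7r, Cdh1 and Spi1 also passed here, but Il7r and Spi1 lost the call in all 4 alternatives and Cdh1 in 3 of them (adjusted p for the 3 genes from 0.0612 to 0.204 where lost). The others did not, though a p above the threshold does not show that Sox13 made no difference. Notch1 (100% of DN2 cells with and without Sox13; 47.3% and 25.4% in DN1d), Cpa3 (100% and 100%; 21.9% and 12.8%) and Mcm2 (98.6% and 88.9%; 31.3% and 30.8%) had differences of differences of 1.05, 1.36 and 2.09, each short of the threshold (adjusted p = 0.46, 0.335 and 0.144). Myb was detected in 15.4% of DN1d cells without Sox13 and 87% with it, and in all DN2 cells of both kinds (-2.12 ± 1.09, adjusted p = 0.144). With 9 DN2 cells without Sox13, a difference of moderate size could be missed, and their counting error is larger than the SE covers. For Notch1, Cpa3 and Myb, at 100% in both kinds of DN2 cell, the DN2 part was set by the 0.5 added and by cell number. Gapdh, detected in every cell, had a difference of differences of 2.31 for this reason. The positive signs of Notch1 and Cpa3 therefore do not show a larger difference with Sox13. Over all cells whatever their Sox13, 30 of 46 assays (65.2%) differed between the populations, 20 toward more DN2 cells (43.5%) and 10 toward fewer (21.7%). Of the assays that passed among the Sox13-detected cells, 4 did not pass over all cells: Blk and Il17re, lower in DN2 (adjusted p = 0.0788 and 0.188), and Cdh1 and Bhlhe40, higher (0.287 and 0.0529).

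**Figure D5:**
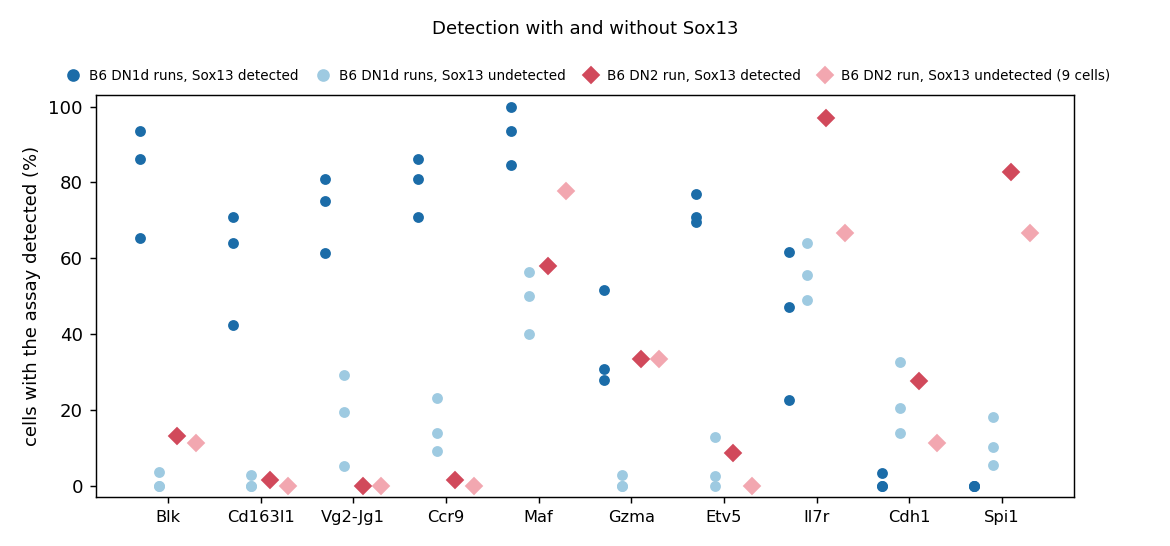
Percentage of cells with an assay detected among cells with Sox13 (dark) and without it (light), per run, for 10 assays whose difference between B6 DN2 and B6 DN1d depended on Sox13 at an adjusted p below 0.05. Each circle is 1 of 3 B6 DN1d runs and each diamond the B6 DN2 run, whose light diamonds rest on 9 cells; Blk, Cd163l1, Ccr9 and Etv5 are high in the dark circles alone.

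The Sox13-detected cells of another population, DN1d cells of Tcrd-/- mice (83 cells in 1 run), are set beside both as a description. Blk was detected in 92.8% of them, Etv5 in 97.6%, Ccr9 in 90.4% and Vg2-Jg1 in 80.7%, all above the B6 DN1d means. Spi1 was detected in 2.41% and Rag2 in 2.41%, both near the B6 DN1d values. Cpa3 at 73.5%, Cdk6 at 95.2% and Smo at 86.7% lay between the B6 DN1d means (21.9%, 43.2% and 48.3%) and DN2 (100% for each), in 1 run and without a test.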

How the data were processed

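The deposited table holds 1 Ct per assay and cell, a unit of other kind, in which lower is more; per the labels' protocols, complementary DNA had 18 preamplification cycles and 30 cycles of quantitative PCR with EvaGreen. The deposited Ct values are not normalized; how Ct, the ceiling of 24 and dropped capture sites were set was not given in the sources used here. Detection was Ct below 24 (44.6% of the members' reactions stood at 24). Members and gene lists were chosen with earlier results of these data known.

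Each run gave 1 value per assay: the empirical logit of the share detected (0.5 added on each side), the mean level, or the mean level where detected. Runs were compared with limma 3.58.1 in R 4.3.3, 4 runs in the fit, Benjamini-Hochberg adjusted over 45 assays (29 for level where detected), threshold 0.05. Total degrees of freedom were 4.14 for detection and 2.78 for level; they were 58 for level where detected and 90 for the difference of differences, a spread in effect shared by all assays. An assay at 0% or 100% has a logit set by the 0.5 and by cell number, and one at 0 in all DN1d runs has too small an SE for level (Spi1). Gapdh, Gata3 and Ets1, at 100% in every run, had a detection difference of 0.80 ± 0.39 (SE) for this reason. The differences of assays at 100% in DN2, such as Sox4 and Tcf7, also depend in part on cell number. Intervals are exact (Clopper-Pearson, 95%), limits at 0 allow 3 cells, and both cover counting error only. No label names the animals of a run, and numbers of runs are names only.

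Named were all assays past the threshold by detection, the Tgd17 list, a fixed set of lineage, reference and junction assays, and the largest differences of level where detected. The other assays of each list were added after their values were seen. Counts include 1 further assay that is not reported here. The tests of detection and of level were tried on simulated data, and those of level where detected and of the difference of differences were not. The simulated runs had the same spread for every assay. The real spread was uneven (SD of level between DN1d runs 0.0521 for Bhlhe40 and 2.76 for Bcl11b), so the trial does not cover it. Of 48 assay names, 41 matched a RefSeq symbol (GRCm38.p6), 2 a synonym and 5 neither. Alternatives left out each DN1d run, set Ct ceilings of 22 and 20, restricted or matched members, weighted runs, added the other populations, or changed the scale. Figures were drawn with matplotlib 3.10.9 in Python 3.11.15.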

Additional observations from a re-analysis of the deposited data

Results flagged for a closer look

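For 10 named assays the difference in detection between B6 DN2 and B6 DN1d differed between cells with and without Sox13, in a limma test of that difference itself (adjusted p below 0.05). The logit differences of differences were -5.63 for Blk, -5.33 for Cd163l1, -4.60 for Vg2-Jg1, -3.91 for Ccr9, -3.62 for Maf, -3.60 for Gzma and -3.40 for Etv5. They were 3.29 for Cdh1, 3.21 for Il7r and 2.99 for Spi1 (SE 1.09 for each). Vg2-Jg1 was detected in 0 DN2 cells of either kind, so part of its value was set by the 0.5 added and by cell number. The 0.5 also entered where other assays stood at 0% or 100%. Spi1 was at 0% in all DN1d runs with Sox13, and Cd163l1, Ccr9 and Etv5 at 0% in DN2 without it. Among single DN1d runs, Blk, Cd163l1, Gzma and Etv5 reached 0% without Sox13, Cdh1 0% with it and Maf 100% with it.

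Behind the smaller ones stand these shares. Maf was detected in 50%, 56.4% and 40% of DN1d cells without Sox13 and 92.7% on average with it, and in 7 of 9 DN2 cells without and 58% with it. Gzma was detected in 2.78%, 0% and 0% of DN1d cells without Sox13 and 36.7% with it, and in 33.3% of DN2 cells of both kinds. Il7r was detected in 56.2% of DN1d cells without Sox13 and 43.8% with it, and in 66.7% and 97.1% of DN2 cells. Cdh1 was detected in 22.4% and 1.08% of DN1d cells, and in 11.1% and 27.5% of DN2 cells. Spi1 was detected in 11.3% and 0% of DN1d cells, and in 66.7% and 82.6% of DN2 cells.

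Of these 10, Blk alone passed under all 4 alternatives. Each DN2 share without Sox13 rests on 9 cells.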

How the results depend on the processing

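By detection in Sox13-detected cells, 27 assays passed, 18 higher in DN2 and 9 lower. Leaving out 1 DN1d run gave 20 to 33, 14 to 21 higher and 6 to 12 lower. The number lower fell to 4 for members with Sox13 Ct from 14 to 20, to 4 on the arcsine scale, and to 1 among members with no receptor junction, where 15 passed in all. By level, 22 passed, 15 higher and 7 lower; leaving out 1 run gave 0 to 23, 0 to 17 higher and 0 to 6 lower. The matched number of assays gave 9 (7 higher, 2 lower), members with no junction 8 (8 higher, 0 lower), and the median over cells 14 (4 lower); 4 were lower with a ceiling of 22, 3 with a ceiling of 20 and 3 with Sox13 Ct from 14 to 20. By level where detected, 3 passed (1 higher, 2 lower), 0 without any 1 run (0 in each direction; 3 to 9 below an unadjusted p of 0.05 in limma) and 0 with Gapdh-shifted levels (0 higher, 0 lower). The difference of differences passed for 11 assays (3 positive, 8 negative), for 1 to 8 without 1 run (0 to 1 positive, 1 to 7 negative), and for 4 (0 positive, 4 negative) with runs weighted by cells on both sides, an alternative chosen after seeing the data. Over all cells, 30 passed, and 25 to 36 without 1 run. The DN2 excess of 3.98 assays per cell was 3.94 to 4.01 without 1 run and 3.48 with a ceiling of 20. Sox13 stayed lower in DN2 throughout, by -2.02 to -2.67 cycles without 1 run and by -2.89 with Gapdh-shifted levels. No named call changed direction; the cause of the lost calls was not tested. Restricted sets hold fewer cells (7 to 23 per DN1d run with Sox13 Ct from 14 to 20, 5 to 8 with no junction). No paired analysis was possible, because DN2 had 1 run and the numbers of runs are names only.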
